A study of Mus musculus with 10 samples.

Results

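The genes described here are 10 nuclear receptor genes of the mouse: the peroxisome proliferator-activated receptors Pparg and Ppard, the retinoid X receptors Rxra and Rxrb, the retinoic acid receptor Rara, the orphan receptors Nr4a1, Nr4a2 and Nr4a3, the glucocorticoid receptor Nr3c1 and the vitamin D receptor Vdr. They were found by matching the Ensembl identifiers of the deposited tables to these symbols. All 10 were present among 45318 genes, and all 10 reached 10 deposited units in 2 or more libraries, the filter that left 13171 genes for the tests. RNA was measured by stranded mRNA sequencing in bone marrow derived macrophages, which are macrophages grown in culture from bone marrow cells of C57BL/6 mice.

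The 10 libraries form 5 groups of 2. Cells labelled Tlr4 -/- (KO-labelled) were pre-treated with Poly(I:C), which mimics the double-stranded RNA of viruses, or were collected after 6 h in a control medium (5% FBS, fetal bovine serum, and 2% BSA, bovine serum albumin), or were untreated. Cells labelled WT were collected after the same 6 h in control medium, or were untreated. All groups share the C57BL/6 strain. The labels give no age and no time or serum content for the Poly(I:C) medium, they do not describe the medium of untreated cells, and WT-labelled cells with Poly(I:C) were not analysed here. They do not say whether the libraries of a group are separate cultures or animals, so the p-values below rest on a spread among these libraries that could be purely technical.

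Nuclear receptors are transcription factors, most of which switch genes on or off when a small lipophilic ligand binds them. The PPAR, retinoic acid and vitamin D receptors act as pairs with a retinoid X receptor, which makes the RXR genes shared partners of several pathways. The glucocorticoid receptor waits in the cytoplasm in a complex with heat shock proteins until hormone binds, and it restrains inflammatory genes in macrophages. The NR4A receptors have no known classical ligand pocket and are controlled mainly through their amounts, since their genes are immediate early genes that switch on within minutes to hours of many signals, among them cyclic AMP and Toll-like receptor signals.

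Levels are given in CPM, computed from each library's scaled total. Differences are on the scale of log2(CPM + 0.1), where changes of low genes are understated, and a gene is said to have risen or fallen where limma's adjusted p over all 13171 genes was under 0.05. The deposited totals were 47451916 and 51679463 in KO-labelled Poly(I:C) libraries, 25683609 and 26688278 in KO-labelled control, 25218442 and 25983215 in KO-labelled untreated, 41950344 and 41102369 in WT-labelled control and 26020591 and 25478689 in WT-labelled untreated libraries. They are totals of scaled values and not read depths. Tlr4 itself was present in every library, with 47.9 and 63.4 CPM in KO-labelled Poly(I:C) libraries. It measured 30.8 and 34.6 CPM in KO-labelled control, against 32.3 and 39.0 CPM in WT-labelled control libraries, which overlapped, and 44.4 and 44.9 CPM in KO-labelled untreated, against 60.1 and 69.1 CPM in WT-labelled untreated libraries, which did not (log2 -0.53, limma adjusted p = 0.346). The table holds 1 value per gene, in which reads over a deleted exon could not be seen apart, and each direction by genotype below rests on the labels. All 10 macrophage markers were found, with summed levels of 23900 to 28300 CPM over the libraries. Lyz2, at 14700 to 19200 CPM, was the largest part of this sum, and single markers moved more, such as Fcgr1 from 114 to 1560 CPM. Against untreated cells 4 rose and 1 fell with Poly(I:C), 4 and 3 in KO-labelled control and 5 and 2 in WT-labelled control medium. Of other lists, 5 of 7 mast cell and basophil markers and 4 of 6 T and NK cell markers were listed at 0 in all libraries. The 11 neutrophil markers summed to 107 to 112 CPM in KO-labelled Poly(I:C), 17.3 to 21.9 in KO-labelled control, 28.6 to 33.0 in KO-labelled untreated, 89.4 to 123 in WT-labelled control and 22.4 to 42.6 in WT-labelled untreated libraries. S100a8 and S100a9 reached 46.8 and 45.7 CPM, while Ly6g was at most 0.22 CPM. The 8 stromal markers, led by Pecam1, summed to 41.3 to 42.4 CPM in KO-labelled Poly(I:C), 29.1 to 33.3 in KO-labelled control, 30 to 32.7 in KO-labelled untreated, 36.7 to 47.5 in WT-labelled control and 28.4 to 38.2 in WT-labelled untreated libraries, and 3 of them rose with Poly(I:C), 1 in KO-labelled control medium and 4 in WT-labelled control medium. Of 6 dendritic cell markers, 2 of the 3 tested rose with Poly(I:C), none in KO-labelled control medium and 1 in WT-labelled control medium, with sums of at most 2.68 CPM. The neutrophil and dendritic cell sums were high in the same libraries as the NR4A genes and Nr3c1 below, and the part of these marker lists in those results was not tested. Of the B cell markers, Cd79b ranged from 7.48 to 52.9 CPM and was low in the same 4 libraries as Rxra, while the other 4 were at most 0.227 CPM. In bulk RNA, fewer cells of a type and less RNA per cell cannot be told apart.

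The number of receptors that passed the test lay near the share over all tested genes in each contrast with untreated cells, so nothing particular to the receptors is read from these counts. In KO-labelled cells, Poly(I:C) against untreated cells gave 4 receptors that rose, 4 that fell and 2 that did not pass the test, in a contrast where 72.1% of all tested genes passed (34.5% higher and 37.6% lower). KO-labelled control against KO-labelled untreated cells gave 1 that rose, 2 that fell and 7 that did not pass, where 20.0% of all genes passed (10.9% higher and 9.08% lower). The 2632 genes behind that share became 1343 and 1074 without KO-labelled control replicates 1 and 2, and 1578 and 1254 without KO-labelled untreated replicates 1 and 2. WT-labelled control against WT-labelled untreated cells gave 5 that rose, 4 that fell and 1 that did not pass, where 65.8% of all genes passed (33.1% higher and 32.8% lower). In KO-labelled cells, Poly(I:C) against control gave 5 that rose and 3 that fell where 69.4% of all genes passed (32.5% higher and 36.9% lower), and 4 and 5 when libraries were scaled by totals alone. These contrasts share libraries, so their counts are not independent of each other. The median log2 difference of the 10 receptors was -0.10 for KO-labelled Poly(I:C) against untreated, 0.02 for KO-labelled control against untreated and 0.23 for WT-labelled control against untreated, beside -0.04, 0.00 and -0.01 over all tested genes. With totals alone the median over all tested genes was -0.77, -0.03 and -0.52, and the values of the receptors moved with it: for Poly(I:C) against KO-labelled untreated cells Nr4a1 was then 2.21, Nr3c1 0.61, Pparg -1.60, Rxra -3.21, Rxrb -1.83 and Rara -1.72, each still past the test. Differences below are therefore relative to the TMM scaling. The counts of other gene lists below are to be read beside the same shares of 72.1% for Poly(I:C), 20.0% for KO-labelled control and 65.8% for WT-labelled control against untreated cells. No list was tested as a set.

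**Figure D1:**
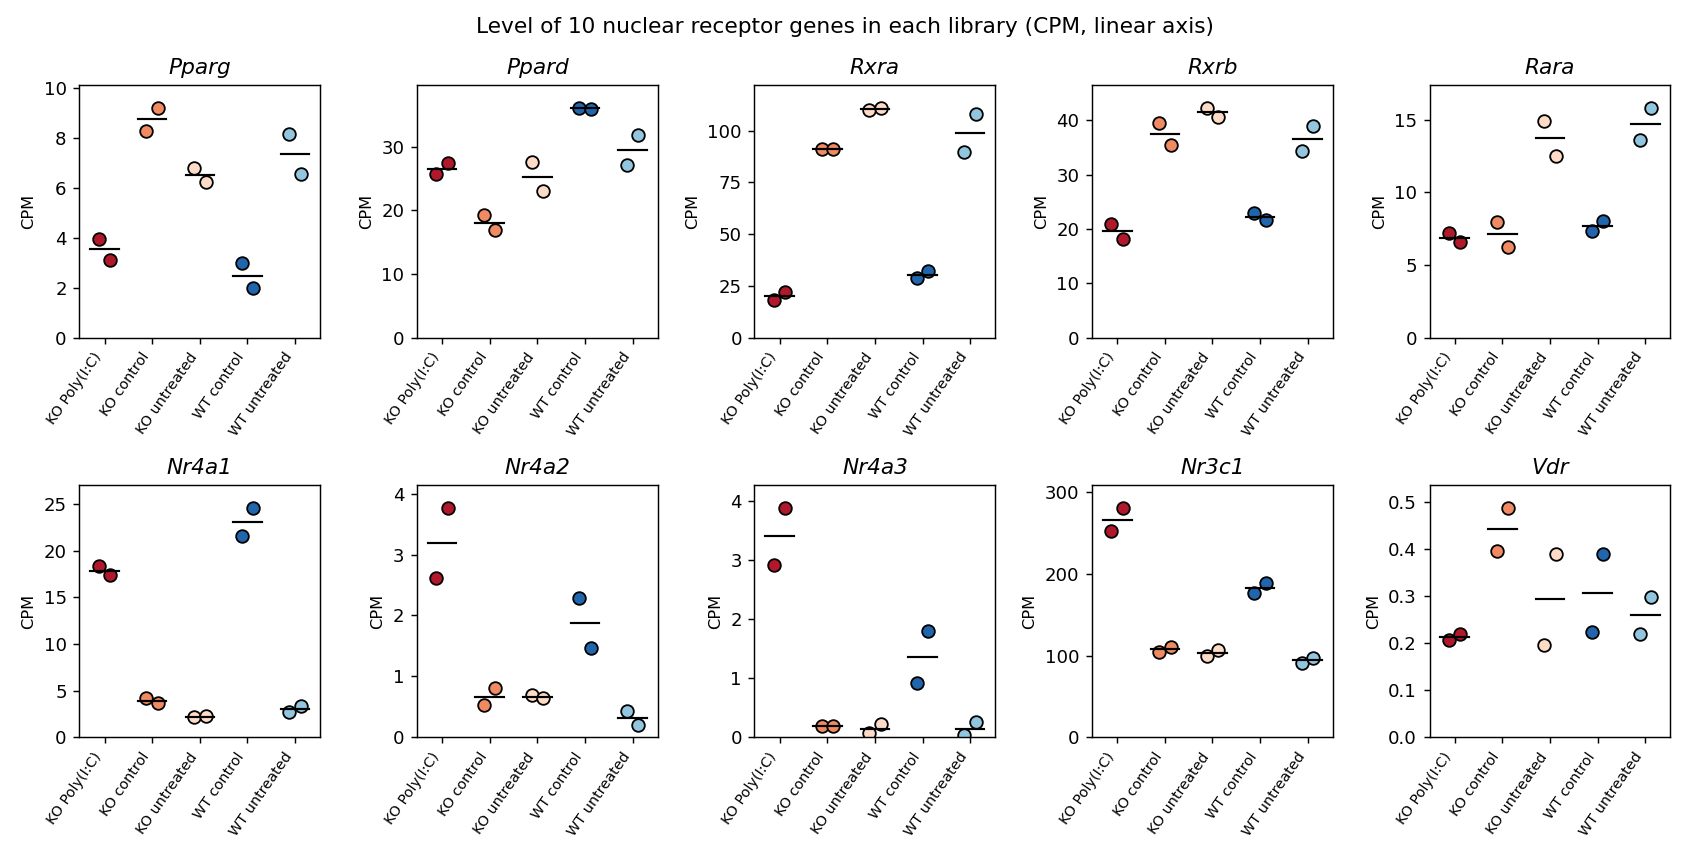
Level in CPM (linear vertical axis from 0) of each of the 10 receptor genes in each library, by group; circles are single libraries and bars are means of 2. Rxra and Rxrb are low, and Nr4a1, Nr4a2, Nr4a3 and Nr3c1 high, in the KO Poly(I:C) and WT control libraries, while Rara is low in all 3 groups that were not untreated.

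The NR4A genes had the largest rises of the set. The sequences before their starts are shown first, because all 3 hold repeated matches to the core of the cyclic AMP response element, the DNA site of CREB family factors. They are the 250 bases before the RefSeq start on GRCm38.p6, with the matches to TGACG, or to CGTCA where the core lies on the other strand, in capitals. For Nr4a3 the GENCODE M21 annotation places the first exon inside that window, so only the 98 bases before this exon are printed.
Nr4a1, chr15:101266596-101266845, plus strand: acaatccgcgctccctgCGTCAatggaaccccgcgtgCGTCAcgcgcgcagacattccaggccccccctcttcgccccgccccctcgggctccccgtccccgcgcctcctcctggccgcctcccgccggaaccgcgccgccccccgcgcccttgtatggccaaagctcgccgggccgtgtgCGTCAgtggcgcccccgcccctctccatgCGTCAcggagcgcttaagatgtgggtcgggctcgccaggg
Nr4a2, chr2:57124004-57124253, minus strand: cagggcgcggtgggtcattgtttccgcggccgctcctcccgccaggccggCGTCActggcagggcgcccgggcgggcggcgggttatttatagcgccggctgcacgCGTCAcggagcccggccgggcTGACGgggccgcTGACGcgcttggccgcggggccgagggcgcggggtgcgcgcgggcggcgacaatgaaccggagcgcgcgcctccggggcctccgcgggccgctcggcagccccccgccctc
Nr4a3, chr4:48045055-48045152, plus strand: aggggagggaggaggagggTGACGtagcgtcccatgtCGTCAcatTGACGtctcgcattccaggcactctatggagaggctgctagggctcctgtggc
Each of the 3 windows of 250 bases held 4 matches, and no match overlapped another. In Nr4a1 they began 233, 213, 69 and 40 bases before the start, in Nr4a2 200, 144, 123 and 111 bases before it, and in Nr4a3 231, 213, 205 and 147 bases before it, the last of these inside the GENCODE exon. Of 32851 RefSeq windows of the same length over all genes, 17.8% held at least 1 match, 3.9% at least 2, 0.688% at least 3 and 0.137%, or 45 windows, at least 4. Windows of 9 of the 10 receptors were searched, and no window of Nr3c1 was looked at. Among the other 6 genes, 1 window of Rxrb and 1 of Rara held 1 match each and the rest held none. A match is a description of the letters, not evidence of a bound factor.

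**Figure D2:**
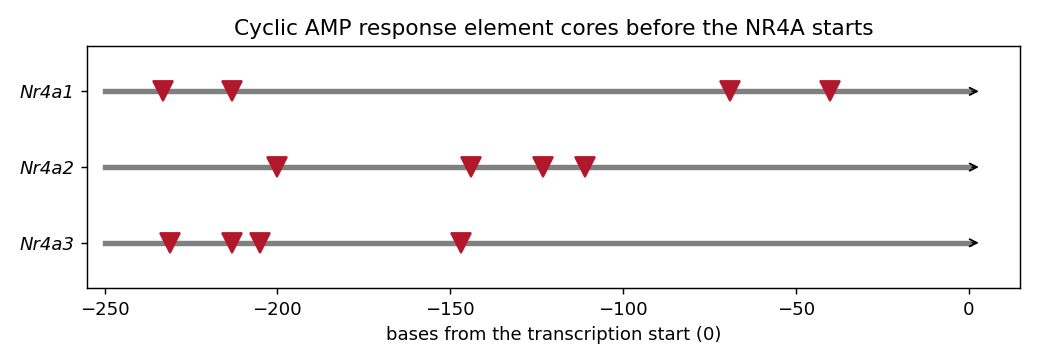
Positions of the cyclic AMP response element core on either strand (triangles) in the 250 bases before the RefSeq start of the 3 NR4A genes; the horizontal axis is bases from the start at 0. Each gene has 4 matches, and those of Nr4a2 and Nr4a3 lie 111 or more bases before the start.

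Nr4a1, also called Nur77, measured 18.3 and 17.4 CPM in KO-labelled Poly(I:C) libraries, 4.26 and 3.63 CPM in KO-labelled control, 2.13 and 2.3 CPM in KO-labelled untreated, 21.6 and 24.6 CPM in WT-labelled control and 2.69 and 3.37 CPM in WT-labelled untreated libraries. The Poly(I:C) and WT-labelled control libraries were the high ones, the KO-labelled control libraries lay just above untreated cells, and no treated group overlapped its untreated group. Nr4a1 rose 7.75-fold with Poly(I:C) over KO-labelled untreated cells (log2 2.95 ± 0.15 SE, adjusted p = 5.96e-08). In control medium it rose 1.74-fold in KO-labelled cells (log2 0.80 ± 0.15, adjusted p = 0.00553) and 7.42-fold in WT-labelled cells (log2 2.89 ± 0.15, adjusted p = 1.21e-07). Nr4a1 was the only NR4A gene that passed the test in KO-labelled control cells.

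Nr4a2, also called Nurr1, is an immediate early gene like Nr4a1. It measured 2.61 and 3.77 CPM in KO-labelled Poly(I:C), 0.528 and 0.811 in KO-labelled control, 0.687 and 0.649 in KO-labelled untreated, 2.29 and 1.46 in WT-labelled control and 0.438 and 0.199 in WT-labelled untreated libraries. Its KO-labelled control and untreated libraries overlapped, and the Poly(I:C) and WT-labelled control libraries stood above all others. Nr4a2 rose 4.22-fold with Poly(I:C) over KO-labelled untreated cells (log2 2.08 ± 0.35, adjusted p = 0.000367) and 4.82-fold in WT-labelled control medium (log2 2.27 ± 0.35, adjusted p = 0.000248), with a difference of -0.02 ± 0.35 in KO-labelled control medium (adjusted p = 0.979).

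Nr4a3, also called Nor1, measured 2.91 and 3.88 CPM in KO-labelled Poly(I:C), 0.198 and 0.195 in KO-labelled control, 0.0654 and 0.227 in KO-labelled untreated, 0.923 and 1.79 in WT-labelled control and 0.0313 and 0.265 in WT-labelled untreated libraries. In this gene the Poly(I:C) libraries were the highest of all, and the KO-labelled control libraries lay within the range of the untreated ones. Its deposited values ran from 1 to 141, so the untreated level rests on small values. Nr4a3 rose 14.9-fold with Poly(I:C) over KO-labelled untreated cells (log2 3.89 ± 0.51, adjusted p = 6.27e-05) and 6.36-fold in WT-labelled control medium (log2 2.67 ± 0.51, adjusted p = 0.00107), and its difference in KO-labelled control medium was 0.35 ± 0.51 (adjusted p = 0.685). The WT-labelled value was 1.90 without WT-labelled untreated replicate 1 and 3.39 without replicate 2. With a pseudocount of 1 CPM, Nr4a3 had 1.93 with Poly(I:C) and 1.02 in WT-labelled control medium, and Nr4a2 had 1.32 and 1.12, all still past the test.

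Per kb of exon, the 3 NR4A genes together had 6.34 and 6.53 CPM per kb in KO-labelled Poly(I:C), 1.38 and 1.27 in KO-labelled control, 0.786 and 0.854 in KO-labelled untreated, 6.86 and 7.67 in WT-labelled control and 0.881 and 1.05 in WT-labelled untreated libraries. Nr4a1 made up 75.9% to 91.4% of these sums and was the main NR4A transcript in every library. Nr4a3 held 7.67% and 9.91% of the sum with Poly(I:C), against 2.25% and 3.91% in WT-labelled control medium, where Nr4a1 was higher.

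Of 14 genes for factors that act on NR4A promoters (the CREB family and its CRTC coactivators, the MEF2 factors with the deacetylases that hold them in check, and serum response factor with Elk1), all were tested. Against KO-labelled untreated cells, 4 rose and 7 fell with Poly(I:C) (2 and 11 with totals alone, 5 and 5 with the deposited scaling), with a median of -0.24. In KO-labelled control medium 2 rose and 1 fell, with a median of 0.05. In WT-labelled control medium 3 rose and 4 fell (3 and 11 with totals alone, 6 and 4 with the deposited scaling), with a median of 0.07. Crem, a cyclic AMP responsive factor that includes a repressor form, rose to 29.8 ± 3.62 CPM with Poly(I:C), against 8.47 ± 0.776 CPM in KO-labelled untreated cells (SD, n = 2 each; log2 1.80, adjusted p = 3.96e-07), and to 22.2 ± 0.166 CPM in WT-labelled control medium, against 7.67 ± 0.135 CPM in WT-labelled untreated cells (log2 1.52, adjusted p = 2.06e-06). Hdac4, a class II deacetylase that represses MEF2 factors, fell by 2.24 with Poly(I:C) (adjusted p = 3.29e-08) and by 1.75 in WT-labelled control medium (adjusted p = 3.29e-07) on the log2 scale. In KO-labelled control medium Srf, which drives serum response genes, rose by 0.72 (adjusted p = 0.00216), and Elk1, its partner factor, fell by 0.47 (adjusted p = 0.0154). Srf also rose with Poly(I:C) (log2 1.03, adjusted p = 1.54e-05) and in WT-labelled control medium (log2 1.03, adjusted p = 2.21e-05), where Elk1 did not pass. In tests without 1 library, the group left with 1 is assumed to vary like the other groups. The Elk1 call was lost without any 1 of the 4 libraries compared, with adjusted p of 0.0784 and 0.0728 without KO-labelled control replicates 1 and 2, and 0.0758 and 0.0542 without KO-labelled untreated replicates 1 and 2.

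**Figure D3:**
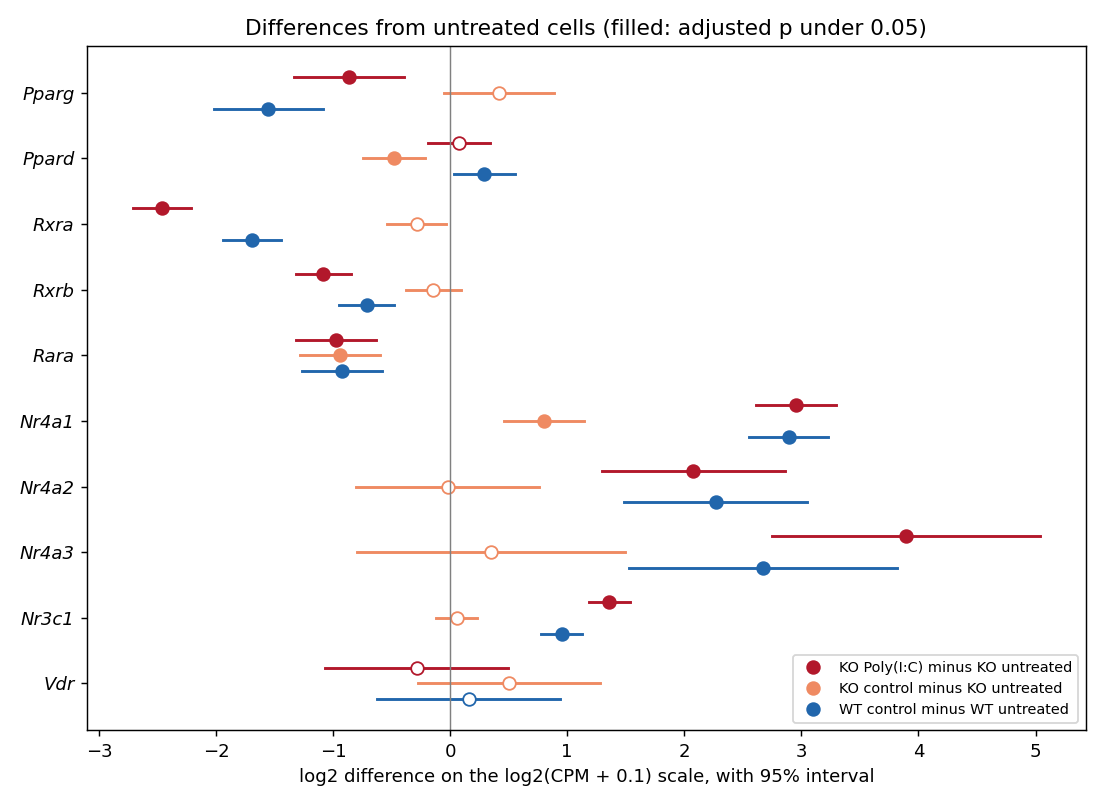
Log2 difference from untreated cells (horizontal axis, with 95% interval) of each receptor for KO Poly(I:C), KO control and WT control; filled circles passed the test at adjusted p under 0.05. For KO control, 3 of the 10 circles are filled, those of Ppard, Rara and Nr4a1, while the other 2 contrasts lie below 0 for Pparg, Rxra, Rxrb and Rara and above 0 for the NR4A genes and Nr3c1.

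Pparg, the lipid-sensing receptor that drives fatty acid uptake and storage genes in macrophages, measured 3.97 and 3.13 CPM in KO-labelled Poly(I:C), 8.29 and 9.21 in KO-labelled control, 6.8 and 6.23 in KO-labelled untreated, 2.99 and 1.97 in WT-labelled control and 8.17 and 6.55 in WT-labelled untreated libraries. The Poly(I:C) and WT-labelled control libraries were the low ones, and the KO-labelled control libraries were the highest of the 10. Pparg fell by 0.87 ± 0.21 on the log2 scale with Poly(I:C) against KO-labelled untreated cells (adjusted p = 0.00388) and by 1.55 ± 0.21 in WT-labelled control medium (adjusted p = 0.000101). Its difference in KO-labelled control medium was 0.42 ± 0.21 (adjusted p = 0.197).

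Ppard, the broadly expressed PPAR that activates fatty acid oxidation genes, moved differently. It measured 25.7 and 27.4 CPM in KO-labelled Poly(I:C), 19.2 and 16.9 in KO-labelled control, 27.6 and 23.0 in KO-labelled untreated, 36.1 and 36.0 in WT-labelled control and 27.1 and 31.9 in WT-labelled untreated libraries. Its lowest values were in KO-labelled control and its highest in WT-labelled control libraries, the reverse of Pparg. Ppard fell by 0.48 ± 0.12 in KO-labelled control medium (adjusted p = 0.0186), and with Poly(I:C) its difference from KO-labelled untreated cells was 0.08 ± 0.12 (adjusted p = 0.575), or -0.67 (adjusted p = 0.000382) with libraries scaled by totals alone. In WT-labelled control medium it was higher by 0.29 ± 0.12 (adjusted p = 0.0497), and this turned to -0.24 (adjusted p = 0.0963) with totals alone. Both calls were lost when the groups compared were fitted by themselves (adjusted p = 0.0655 in KO-labelled and 0.0785 in WT-labelled cells). The WT-labelled call was also lost without the filter (adjusted p = 0.0741) and without WT-labelled control replicate 1 (0.132), control replicate 2 (0.13) or untreated replicate 1 (0.362), and the KO-labelled call was lost without KO-labelled control replicate 2 (adjusted p = 0.129) and without KO-labelled untreated replicate 1 (adjusted p = 0.112).

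The third member of the family, Ppara, was listed at 0 in all 10 libraries. Per kb of exon, Pparg held 28.2% and 22.5% of the PPAR sum in KO-labelled Poly(I:C), 52.4% and 58.1% in KO-labelled control, 38.6% and 40.8% in KO-labelled untreated, 17.4% and 12.2% in WT-labelled control and 43.4% and 34.3% in WT-labelled untreated libraries. Pparg was thus the larger part of the PPAR sum in the KO-labelled control libraries and the smaller part in the other 8. The sum itself stayed between 4.71 and 6.46 CPM per kb.

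Of 21 PPAR target genes of fatty acid uptake, storage and oxidation, 18 were tested. Against KO-labelled untreated cells, 3 rose and 15 fell with Poly(I:C) (1 and 17 with totals alone), with a median of -0.86. In KO-labelled control medium 1 rose and 14 fell, with a median of -0.74, and in WT-labelled control medium 2 rose and 15 fell, with a median of -0.85. The medians over all tested genes in these 3 contrasts with untreated cells were -0.04, 0.00 and -0.01. Between KO-labelled Poly(I:C) and KO-labelled control cells, 4 of the list rose and 9 fell, with a median of -0.36. All tested genes had a median of -0.06 there, and 69.4% of them passed. In KO-labelled control medium Pparg did not pass the test, and Ppard fell by 0.48 (adjusted p = 0.0186), a call lost under some alternatives. The part of either receptor in the changes of this list was not tested. Angptl4, a secreted inhibitor of lipoprotein lipase, fell in all 3 contrasts: to 0.0441 ± 0.0623 CPM with Poly(I:C) and to 1.33 ± 0.00657 CPM in KO-labelled control medium, against 21.6 ± 2.4 CPM in KO-labelled untreated cells, and to 0.19 ± 0.111 CPM in WT-labelled control medium, against 19.9 ± 0.731 CPM in WT-labelled untreated cells. Its log2 differences were -7.30, -3.92 and -6.16 (adjusted p = 2.14e-08, 7.19e-05 and 1.23e-07). Fabp4, a fatty acid carrier, rose to 52.5 ± 0.034 CPM with Poly(I:C) and fell to 8.99 ± 1.09 CPM in KO-labelled control medium, against 15.8 ± 4.46 CPM in KO-labelled untreated cells (adjusted p = 3.75e-05 and 0.0305). In WT-labelled control medium it rose to 38.7 ± 0.885 CPM, against 16.1 ± 4.9 CPM in WT-labelled untreated cells (adjusted p = 0.000413). The KO-labelled control call of Fabp4 was lost without the filter (adjusted p = 0.0638), with the groups compared fitted by themselves (0.0741) and without any 1 of 3 libraries: KO-labelled control replicate 1 (0.16), control replicate 2 (0.0734) or untreated replicate 2 (0.208). Lpl, the lipase that frees fatty acids from lipoproteins, was the gene of this list that rose in KO-labelled control medium, to 4190 ± 319 CPM against 2470 ± 288 CPM in KO-labelled untreated cells (log2 0.76, adjusted p = 0.000804), and it fell with Poly(I:C) (log2 -0.37, adjusted p = 0.0065) and in WT-labelled control medium (log2 -0.40, adjusted p = 0.00531).

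Rxra, a retinoid X receptor and shared partner of the PPAR and RAR proteins, measured 18.3 and 22.0 CPM in KO-labelled Poly(I:C), 90.9 and 91.1 in KO-labelled control, 110 and 111 in KO-labelled untreated, 28.7 and 32.2 in WT-labelled control and 89.7 and 108 in WT-labelled untreated libraries. The Poly(I:C) and WT-labelled control libraries were low and far from the other 6. Rxra fell by 2.46 ± 0.11 on the log2 scale with Poly(I:C), a 5.51-fold fall (adjusted p = 2.51e-08), and by 1.69 ± 0.11 in WT-labelled control medium, a 3.23-fold fall (adjusted p = 5.93e-07). In KO-labelled control medium the difference was -0.28 ± 0.11 (adjusted p = 0.106), although the libraries did not overlap with untreated ones. That value passed the test with totals alone (adjusted p = 0.0463) and when the KO-labelled control and untreated libraries were fitted by themselves (adjusted p = 0.0206).

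Rxrb, the second retinoid X receptor, measured 21.0 and 18.1 CPM in KO-labelled Poly(I:C), 39.6 and 35.5 in KO-labelled control, 42.3 and 40.7 in KO-labelled untreated, 23.0 and 21.6 in WT-labelled control and 34.3 and 39.0 in WT-labelled untreated libraries. It was low in the same libraries as Rxra, by a smaller factor. Rxrb fell by 1.08 ± 0.10 with Poly(I:C) (adjusted p = 6.51e-06) and by 0.71 ± 0.10 in WT-labelled control medium (adjusted p = 0.000181), and its difference in KO-labelled control medium was -0.15 ± 0.10 (adjusted p = 0.38). Per kb of exon the 3 RXR genes summed to 8.63 and 8.59 CPM per kb in KO-labelled Poly(I:C), 26.6 and 25.6 in KO-labelled control, 30.9 and 30.6 in KO-labelled untreated, 11.1 and 11.3 in WT-labelled control and 25.1 and 29.6 in WT-labelled untreated libraries. Rxra was 38.8% and 46.8% of that sum with Poly(I:C) and 47.6% and 52% in WT-labelled control, against 62.6% to 66.8% in the other 6 libraries. Rxrg, the third RXR gene, was at most 0.115% of the sum.

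**Figure D4:**
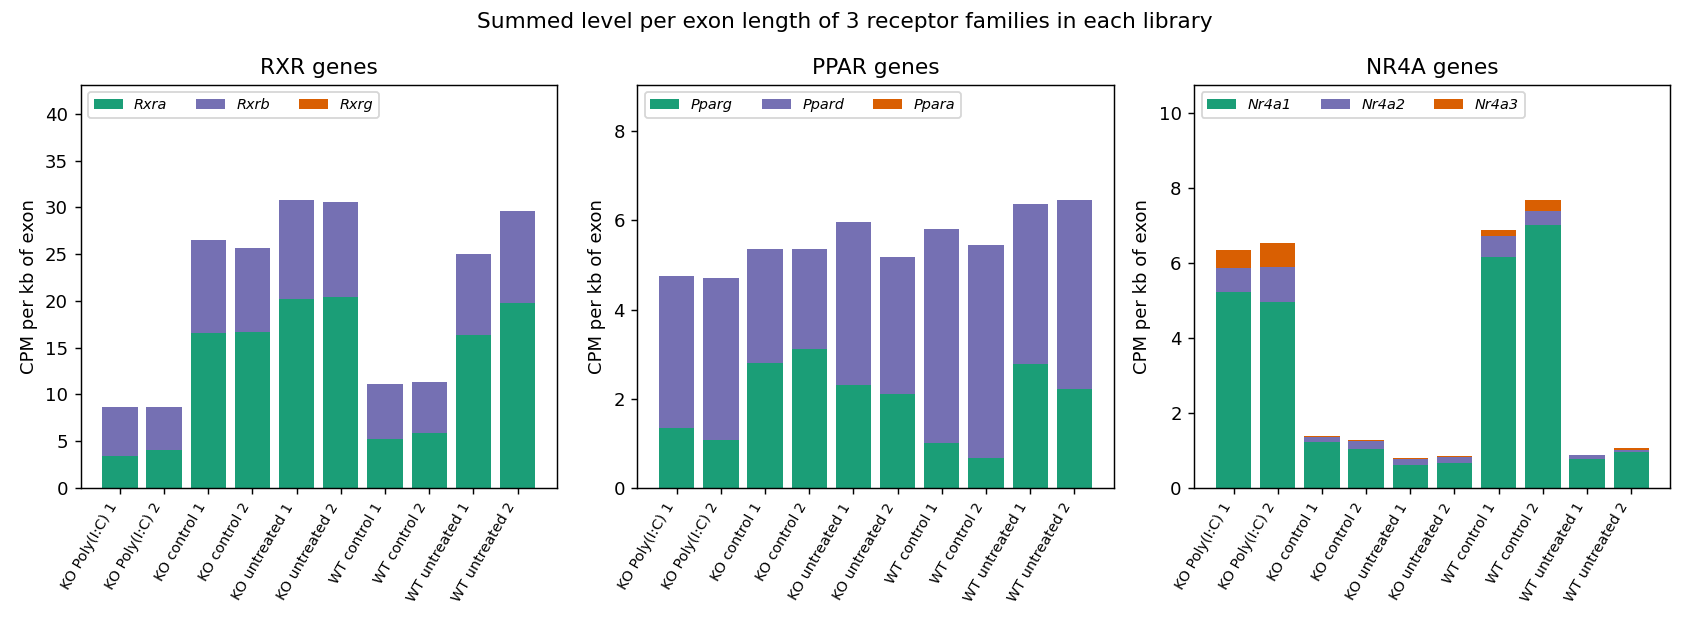
Level per kb of exon (CPM per kb, bars from 0) of the RXR, PPAR and NR4A genes in each library, stacked by gene. The RXR bars are 8.59 to 11.3 in the KO Poly(I:C) and WT control libraries and 25.1 to 30.9 in the other 6, while the PPAR bars stay between 4.71 and 6.46.

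Rara, the retinoic acid receptor that pairs with the RXRs, measured 7.17 and 6.6 CPM in KO-labelled Poly(I:C), 7.96 and 6.23 in KO-labelled control, 14.9 and 12.5 in KO-labelled untreated, 7.35 and 8.01 in WT-labelled control and 13.6 and 15.8 in WT-labelled untreated libraries. All 6 libraries of treated cells lay below all 4 untreated libraries. Rara fell by 0.98 ± 0.15 with Poly(I:C) (adjusted p = 0.000216), by 0.94 ± 0.15 in KO-labelled control medium (adjusted p = 0.00255) and by 0.92 ± 0.15 in WT-labelled control medium (adjusted p = 0.000397). Between KO-labelled Poly(I:C) and KO-labelled control cells its difference was -0.03 (95% interval -0.37 to 0.31), or -0.74 (adjusted p = 0.00129) with totals alone. Per kb of exon Rarg was the larger of the RAR genes in all 10 libraries, with 55.9% to 74.3% of their sum, and Rarb was listed at 0.

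Of 11 retinoic acid target genes 4 were tested. The Poly(I:C) contrast had 1 that rose and 3 that fell, in KO-labelled control medium 1 rose and 2 fell, and in WT-labelled control medium 1 rose and 3 fell, with medians of -1.15, -0.05 and -0.92. Tgm2, a transglutaminase, rose to 488 ± 47.8 CPM with Poly(I:C) and fell to 98.1 ± 10.4 CPM in KO-labelled control medium, against 179 ± 4.18 CPM in KO-labelled untreated cells (adjusted p = 1.42e-06 and 0.000815), and rose to 476 ± 56.4 CPM in WT-labelled control medium, against 184 ± 18.4 CPM in WT-labelled untreated cells (adjusted p = 2.96e-06). Asb2, a ubiquitin ligase subunit, rose in KO-labelled control medium by 1.27 (adjusted p = 0.000373). It fell with Poly(I:C) (log2 -1.03, adjusted p = 8.95e-05) and in WT-labelled control medium (log2 -0.81, adjusted p = 0.000626).

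Nr3c1, the glucocorticoid receptor through which cortisol and corticosterone act, measured 252 and 281 CPM in KO-labelled Poly(I:C), 105 and 111 in KO-labelled control, 100 and 107 in KO-labelled untreated, 176 and 189 in WT-labelled control and 91.5 and 97.1 in WT-labelled untreated libraries. The Poly(I:C) libraries were the highest, the WT-labelled control libraries came next, and KO-labelled control and untreated libraries overlapped. Nr3c1 rose 2.57-fold with Poly(I:C) over KO-labelled untreated cells (log2 1.36 ± 0.08, adjusted p = 1.46e-07) and 1.94-fold in WT-labelled control medium (log2 0.95 ± 0.08, adjusted p = 2.99e-06), with a difference of 0.06 ± 0.08 in KO-labelled control medium (adjusted p = 0.667).

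All 10 genes on a list of chaperones of the glucocorticoid receptor were tested. After Poly(I:C) 8 rose and 2 fell (6 and 3 with totals alone), in KO-labelled control medium 1 rose and none fell, and in WT-labelled control medium 8 rose and 2 fell (6 and 3 with totals alone). Their medians were 1.02, 0.20 and 0.93. Dnajb1, a cochaperone that hands proteins to heat shock proteins, rose to 88.6 ± 1.73 CPM with Poly(I:C), against 25.3 ± 0.648 CPM in KO-labelled untreated cells (adjusted p = 1.35e-08), and to 81.1 ± 4.28 CPM in WT-labelled control medium, against 24 ± 0.616 CPM in WT-labelled untreated cells (adjusted p = 3.17e-08). Fkbp5, an immunophilin of the receptor complex and itself a hormone target, fell by 0.59 with Poly(I:C) (adjusted p = 0.00642) and by 0.75 in WT-labelled control medium (adjusted p = 0.0017); with the deposited scaling the Poly(I:C) value was -0.39 (adjusted p = 0.0584). Hspa8, the constitutive heat shock cognate protein, was the member that rose in KO-labelled control medium, by 0.47 (adjusted p = 0.00697), and it did not pass without KO-labelled control replicate 2 (adjusted p = 0.0758).

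Glucocorticoid target genes did not move in a common direction. Of 17, 16 were tested: with Poly(I:C) 7 rose and 7 fell (4 and 8 with totals alone), in KO-labelled control medium 1 rose and 3 fell, and in WT-labelled control medium 6 rose and 6 fell (4 and 9 with totals alone), with medians of 0.17, -0.13 and -0.32. Dusp1, a phosphatase that switches off MAP kinases, rose to 418 ± 7.88 CPM with Poly(I:C) and to 38.8 ± 1.62 CPM in KO-labelled control medium, against 25.6 ± 1.78 CPM in KO-labelled untreated cells (adjusted p = 3.29e-10 and 0.00156). It also rose in WT-labelled control medium (log2 2.92, adjusted p = 4.61e-09). Lcn2, an iron-siderophore binding protein, rose to 931 ± 114 CPM in WT-labelled control medium, against 85.2 ± 5.62 CPM in WT-labelled untreated cells (log2 3.44, adjusted p = 2.76e-09). It rose with Poly(I:C) too (log2 3.57, adjusted p = 1.16e-09), and its difference in KO-labelled control medium was -0.21 (adjusted p = 0.175). Cd163, the haemoglobin scavenger receptor, fell in all 3 contrasts: by 3.02 with Poly(I:C), 1.45 in KO-labelled control and 2.57 in WT-labelled control medium (adjusted p = 2.78e-06, 0.00436 and 1.3e-05). Pdk4, a kinase that blocks pyruvate dehydrogenase and is shared with the PPAR list, fell by 2.01 in KO-labelled control medium (adjusted p = 0.00763) and by 2.91 in WT-labelled control medium (adjusted p = 0.000127). With Poly(I:C) it fell by 2.81 (adjusted p = 0.000124). Cd163 and Pdk4 were both low genes. Cd163 had a mean of 1.38 CPM in KO-labelled untreated cells and 0.0844 CPM with Poly(I:C). Pdk4 had means of 0.634 CPM in KO-labelled and 0.758 CPM in WT-labelled untreated cells. In control medium its means were 0.0814 and 0.0149 CPM, below the 0.1 CPM added before taking logs. The KO-labelled call of Pdk4 was lost without KO-labelled control replicate 1 (adjusted p = 0.0589) or untreated replicate 2 (adjusted p = 0.0767).

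Vdr, the vitamin D receptor, was near the filter throughout. It measured 0.206 and 0.22 CPM in KO-labelled Poly(I:C), 0.396 and 0.487 in KO-labelled control, 0.196 and 0.389 in KO-labelled untreated, 0.224 and 0.388 in WT-labelled control and 0.219 and 0.298 in WT-labelled untreated libraries, from deposited values of 6 to 15. KO-labelled control lay just above each of the other 4 groups. KO-labelled Poly(I:C), with at most 0.22 CPM, lay just below WT-labelled control, with at least 0.224 CPM. The remaining pairs of groups overlapped. No contrast with untreated cells passed the test, and the interval for WT-labelled control against untreated was -0.62 to 0.94. KO-labelled Poly(I:C) against control gave -0.79 ± 0.35 (adjusted p = 0.0678), which passed with totals alone (adjusted p = 0.00515). Of 8 vitamin D target genes 4 were tested: with Poly(I:C) 2 rose and 1 fell, in KO-labelled control medium 2 rose, and in WT-labelled control medium 2 rose and 1 fell, with medians of 0.84, 0.32 and 0.51. With totals alone 2 rose and 2 fell in the first and the third of these contrasts. Cd14, the lipopolysaccharide coreceptor and also a macrophage marker, rose to 658 ± 54.9 CPM with Poly(I:C), against 150 ± 9.89 CPM in KO-labelled untreated cells (adjusted p = 8.29e-09), and to 1050 ± 36.6 CPM in WT-labelled control medium, against 163 ± 3.59 CPM in WT-labelled untreated cells (adjusted p = 4.71e-09). In KO-labelled control medium Cd14 rose by 0.48 (adjusted p = 0.00316). Thbd, thrombomodulin, fell to 5.5 ± 0.344 CPM with Poly(I:C) and rose to 22.8 ± 0.123 CPM in KO-labelled control medium, against 13.5 ± 0.614 CPM in KO-labelled untreated cells (adjusted p = 2.53e-06 and 0.00148). In WT-labelled control medium Thbd fell by 0.64 (adjusted p = 0.000496).

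The response of the receptors to control medium was then compared between the labelled genotypes. Untreated cells gave no receptor that differed between KO-labelled and WT-labelled cells by limma, in a contrast where 0.167% of all genes passed (0.0835% higher and 0.0835% lower). The 22 genes behind that share became 2 with those groups fitted by themselves, 12 without WT-labelled untreated replicate 1, 14 without KO-labelled untreated replicate 2 and 69 without WT-labelled untreated replicate 2. At an unadjusted p under 0.05 there were 2, Nr4a1 (log2 -0.43) and Nr4a2 (log2 0.94), and 1146 of all tested genes. In control medium KO-labelled against WT-labelled cells had 3 receptors higher and 5 lower, where 61.1% of all genes passed (30.9% higher and 30.2% lower). Pparg was 3.49-fold, Rxra 2.98-fold and Rxrb 1.68-fold higher in KO-labelled control cells (adjusted p = 4.2e-05, 1.16e-06 and 0.000155). Nr4a1, Nr4a2, Nr4a3 and Nr3c1 were lower, with log2 differences of -2.52, -1.35, -2.23 and -0.76 (adjusted p = 3.65e-07, 0.00706, 0.00365 and 1.9e-05), and Ppard was lower by a factor of 2 (adjusted p = 4.66e-05). The Nr4a2 call was lost without KO-labelled control replicate 1 (adjusted p = 0.0569) or WT-labelled control replicate 1 (adjusted p = 0.0615).

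The test of the difference in response, KO-labelled minus WT-labelled, passed for 8 of the 10 receptors, where 45.7% of all genes passed (22.0% higher and 23.7% lower). The difference was positive for Pparg (1.97, 95% interval 1.31 to 2.64), Rxra (1.41, 1.05 to 1.76) and Rxrb (0.57, 0.24 to 0.90), which fell in WT-labelled cells and had values nearer 0 or above 0 in KO-labelled cells. It was negative for Nr4a1 (-2.09, -2.57 to -1.61), Nr4a2 (-2.29, -3.40 to -1.19), Nr4a3 (-2.32, -3.94 to -0.70) and Nr3c1 (-0.90, -1.15 to -0.65), which rose in WT-labelled cells and had values nearer 0 in KO-labelled cells, and for Ppard (-0.77, -1.15 to -0.40). The Ppard value was -0.28 (adjusted p = 0.175) with totals alone, the Nr4a3 value did not pass without the filter (adjusted p = 0.0559), and the Rxrb value did not pass without KO-labelled control replicate 1 (adjusted p = 0.0504). Leaving out 1 library also ended the Nr4a3 call for KO-labelled control replicates 1 and 2 (adjusted p = 0.0571 and 0.0583), KO-labelled untreated replicate 2 (0.09), WT-labelled control replicate 2 (0.0934) and WT-labelled untreated replicate 1 (0.0763, with a value of -1.57), and without WT-labelled untreated replicate 2 the value was -3.04. With a pseudocount of 1 CPM the Nr4a2 value was -1.12 and the Nr4a3 value -0.96, both still past the test. For Rara the difference was -0.02, with an interval of -0.50 to 0.46, and for Vdr it was 0.35, with an interval of -0.76 to 1.45.

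**Figure D5:**
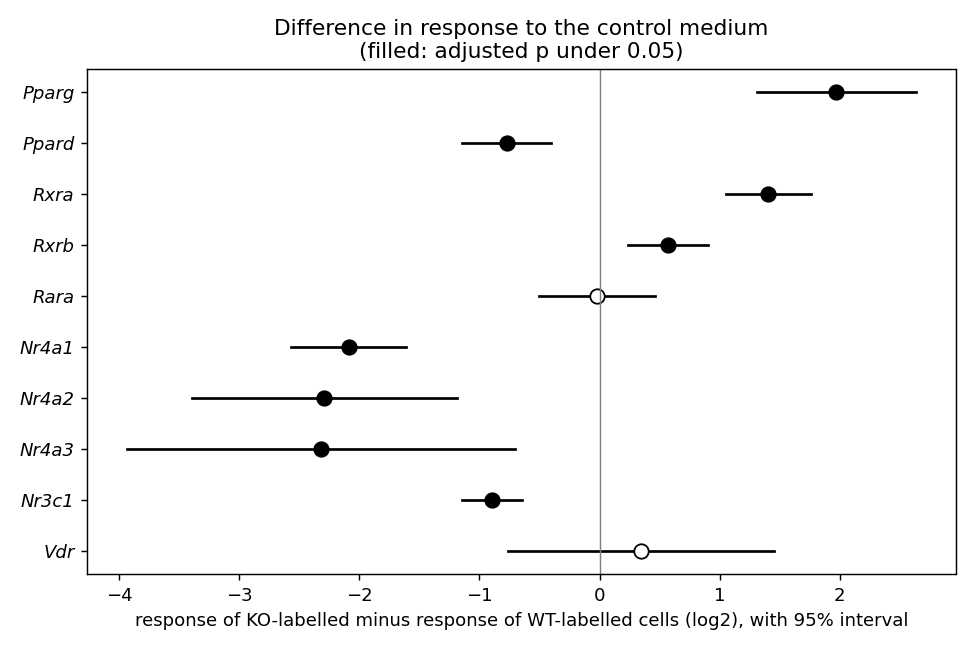
Difference between the response of KO-labelled and WT-labelled cells to control medium (log2, horizontal axis, with 95% interval) for each receptor; filled circles passed at adjusted p under 0.05. Pparg, Rxra and Rxrb lie above 0, Ppard, the NR4A genes and Nr3c1 below 0, and Rara at -0.02.

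Between KO-labelled Poly(I:C) and KO-labelled control cells, Nr4a3 rose 11.7-fold, Nr4a1 4.44-fold, Nr4a2 4.28-fold and Nr3c1 2.47-fold (adjusted p = 0.000141, 7.27e-07, 0.00038 and 2.43e-07). Rxra, Pparg and Rxrb fell, with log2 differences of -2.18, -1.28 and -0.94 (adjusted p = 7.39e-08, 0.000334 and 2.18e-05). Ppard was higher by 0.56 (adjusted p = 0.00179), which turned to -0.15 (adjusted p = 0.255) with totals alone. The Poly(I:C) and WT-labelled control groups differ in both label and treatment and are given side by side only: in Poly(I:C) cells the means were 17.8 CPM for Nr4a1, 3.39 for Nr4a3, 20.1 for Rxra and 267 for Nr3c1, and in WT-labelled control cells they were 23.1 CPM for Nr4a1, 1.36 for Nr4a3, 30.5 for Rxra and 183 for Nr3c1.

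Ordered by level per kb of exon, Nr3c1 led with Poly(I:C), at 34.7 CPM per kb, followed by Nr4a1 at 5.08 and Rxrb at 4.92, whose ranges met. In KO-labelled control cells Rxra led at 16.7, ahead of Nr3c1 at 14.0 and Rxrb at 9.45, and in KO-labelled untreated cells the order was Rxra at 20.3, Nr3c1 at 13.5 and Rxrb at 10.4. In WT-labelled control cells Nr3c1 led at 23.8, followed by Nr4a1 at 6.57 and by Rxrb at 5.61 and Rxra at 5.58, whose ranges met. In WT-labelled untreated cells Rxra led at 18.1, ahead of Nr3c1 at 12.3 and Rxrb at 9.23. Nr4a1 was seventh in both untreated groups and in KO-labelled control cells, at 1.12 CPM per kb in KO-labelled control, 0.631 in KO-labelled untreated and 0.865 in WT-labelled untreated cells. Ppard and Rara had ranges that met in both untreated groups, and Vdr and Nr4a3, the lowest pair there, likewise.

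Over the 10 libraries, which share 5 groups and are therefore not independent points, the gene whose log2 level follows a receptor most closely by Pearson's r is given for 9 receptors as a description. For Rxra this was Fndc10 (r = 0.998), for Nr3c1 Vps54 (0.998), for Nr4a1 Sqstm1 (0.997), for Rxrb Trim24 (0.995) and for Nr4a3 Grb2 (0.991). For Rara it was Pdcd2l (0.984), for Nr4a2 Sept7 (0.979), for Pparg Mdh1 (0.976) and for Vdr Gm37795 (0.956). High values were common for the genes that split the libraries into the same 2 blocks: 2626 genes had r above 0.9 with Rxra and 2424 with Nr3c1, against 174 with Rara, 24 with Ppard and 3 with Vdr.

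The rest of the nuclear receptor family was mostly below the filter: 14 of 38 other members were tested. After Poly(I:C) 3 rose and 8 fell (1 and 10 with totals alone), in KO-labelled control medium 1 rose and 3 fell, and in WT-labelled control medium 3 rose and 5 fell (1 and 8 with totals alone), with medians of -0.36, -0.08 and -0.30. Nr1h3, the oxysterol receptor LXR alpha and a partner of RXR, rose in all 3: to 99.7 ± 6.32 CPM with Poly(I:C) and 36.1 ± 2.05 CPM in KO-labelled control medium, against 22.3 ± 0.899 CPM in KO-labelled untreated cells (adjusted p = 4.64e-08 and 0.00198), and to 89.7 ± 10.1 CPM in WT-labelled control medium, against 22.8 ± 2.45 CPM in WT-labelled untreated cells (adjusted p = 1.5e-07). Rxra and Rxrb fell in the first and the third of these contrasts. Thra, a thyroid hormone receptor, fell in all 3 contrasts, with log2 differences of -1.47, -1.16 and -1.11 (adjusted p = 5.41e-06, 0.000548 and 6.08e-05). Rora, a receptor of the circadian and lipid network, fell with Poly(I:C) (log2 -1.69, adjusted p = 3.1e-06) and in WT-labelled control medium (log2 -0.925, adjusted p = 0.000329). Esr1, the oestrogen receptor alpha gene, fell by 1.63 in KO-labelled control medium (adjusted p = 0.00293). It did not pass with Poly(I:C) or in WT-labelled control medium.

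Coactivators and corepressors, the proteins through which these receptors act on chromatin, were counted next, and 19 of 20 were tested. Poly(I:C) gave 8 that rose and 6 that fell (1 and 14 with totals alone, 9 and 3 with the deposited scaling), in KO-labelled control medium none rose and 1 fell, and in WT-labelled control medium 5 rose and 5 fell (1 and 13 with totals alone, 7 and 2 with the deposited scaling), so no direction is given for this list. Their medians were 0.08, 0.07 and 0.00. Tbl1xr1, an exchange factor of the NCoR corepressor complex, fell in all 3 contrasts, with log2 differences of -2.07, -0.49 and -2.06 (adjusted p = 2.99e-08, 0.00685 and 5.76e-08). Without KO-labelled control replicate 2 or untreated replicate 2, its KO-labelled control call was lost (adjusted p = 0.0563 and 0.0653). Ncoa7, a coactivator, rose by 1.48 with Poly(I:C) (adjusted p = 2.09e-07), and Lcor, a ligand-dependent corepressor, rose by 1.07 in WT-labelled control medium (adjusted p = 0.00481), though not with totals alone (0.54, adjusted p = 0.0684).

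Genes that make, break down or carry receptor ligands were the last list, with 11 of 26 tested. In Poly(I:C) cells 4 rose and 5 fell (2 and 6 with totals alone, 4 and 3 with the deposited scaling), in KO-labelled control medium 1 rose and 2 fell, and in WT-labelled control medium 4 rose and 4 fell (2 and 4 with totals alone), with medians of -0.24, -0.06 and 0.05. Rdh10, which oxidises retinol on the way to retinoic acid, rose in KO-labelled control medium to 5.59 ± 1.04 CPM, against 2.23 ± 0.175 CPM in KO-labelled untreated cells (log2 1.28, adjusted p = 0.00148). It also rose with Poly(I:C) (log2 0.64, adjusted p = 0.0102) and in WT-labelled control medium (log2 1.07, adjusted p = 0.000544). H6pd, which supplies the cofactor for the reactivation of glucocorticoids in the endoplasmic reticulum, fell to 28.7 ± 0.0215 CPM with Poly(I:C), against 92.6 ± 2.72 CPM in KO-labelled untreated cells (adjusted p = 2.49e-07), and to 40 ± 7.1 CPM in WT-labelled control medium, against 89 ± 2.49 CPM in WT-labelled untreated cells (adjusted p = 5.59e-06).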

How the data were processed

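The authors deposited whole numbers for each gene in each library, and a second table of rlog values, which are on a log2 scale. The submitters' processing notes name RSEM 1.2.12, STAR 2.4.0d, Trim Galore 0.2.8 and DESeq2, with no roles. A genome build for these values is not given in the sources used. In 6 libraries 22 to 95 of the whole numbers from 1 to 200 never occur, so the deposited numbers were treated as a scaled signal and not as raw counts. Symbols, positions and exon lengths came from GENCODE M21 (44585 of 45318 identifiers matched) and promoter sequences from RefSeq (GRCm38.p6).

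Values were divided by the library total times a TMM factor (trimming 30% of ratios and 5% of levels) and tested as log2(CPM + 0.1) with limma 3.58.1 (trend) in R 4.3.3, with 1 coefficient per group over 10 libraries, 5 residual degrees of freedom, and Benjamini-Hochberg adjustment over 13171 genes. The fit was tested on simulated data. Figures were drawn in Python 3.11.15. The members and gene lists were chosen with earlier results of these data known. Beyond the members, the text names in each list the called gene with the largest rise and the largest fall in each contrast with untreated cells, and the gene most correlated with each member. Some genes that this rule names are not reported here. Cell type markers, Ly6g, S100a8, S100a9 and Cd79b among them, were taken from lists of markers. Alternatives were other scalings, pseudocounts, no filter, fewer groups, a replicate block, the rlog table and leaving out each library.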

Additional observations from a re-analysis of the deposited data

Results flagged for a closer look

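The response to control medium differed between KO-labelled and WT-labelled cells in 8 receptors by the test of that difference. On the log2 scale, the KO-labelled response minus the WT-labelled response was 1.97 for Pparg, 1.41 for Rxra and 0.568 for Rxrb. It was -0.774 for Ppard, -2.09 for Nr4a1, -2.29 for Nr4a2, -2.32 for Nr4a3 and -0.895 for Nr3c1. With a pseudocount of 1 CPM the values of Nr4a2 and Nr4a3, both low genes, were -1.12 and -0.96. Of all tested genes, 45.7% passed the same test.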

How the results depend on the processing

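Of 950 values of single receptors under the alternatives, 923 kept their side of the threshold, 18 were no longer past it and 6 moved past it. Another 3 changed sign while past the threshold in the reported fit or in the alternative. Values that passed in neither fit could change sign and are counted among the 923. Vdr in WT-labelled control against untreated, at 0.16 with a lowest value of -0.23, was such a case. The 3 counted as changed in sign were all Ppard with libraries scaled by totals alone. They were -0.24 for WT-labelled control against untreated, -0.15 for KO-labelled Poly(I:C) against control and -0.67 for KO-labelled Poly(I:C) against untreated. That scaling shifted the median of all tested genes to -0.77 for KO-labelled Poly(I:C) against untreated, -0.76 for KO-labelled Poly(I:C) against control, 0.50 for KO-labelled against WT-labelled control and -0.52 for WT-labelled control against untreated cells. Under the deposited scaling these medians were 0.15, 0.13, -0.14 and 0.14. All genes that rose and fell then numbered 2218 and 8703, 2081 and 8882, 7672 and 2077, and 2267 and 7689 with totals alone, and 5436 and 3997, 5203 and 3758, 2963 and 4934, and 5157 and 3423 with the deposited scaling, beside 4544 and 4955, 4279 and 4860, 4072 and 3975, and 4357 and 4315 in the fit reported. The difference in response had 2904 and 3121 such genes, 6518 and 1695 with totals alone and 2057 and 3816 with the deposited scaling. Over all alternatives 8 to 9 receptors passed in WT-labelled control against untreated, 2 to 4 in KO-labelled control against untreated, 8 to 9 in both Poly(I:C) contrasts, 7 to 8 between the control groups and 6 to 8 in the difference in response. For KO-labelled against WT-labelled untreated cells, 22 genes passed, 14 without the filter, 2 with those groups alone and 12 to 69 without single libraries. For KO-labelled control against untreated, 2632 genes passed, and 1074 to 1578 without single libraries. Of 637 values of named list genes, 621 kept their call and none changed sign. The planned edgeR and DESeq2 tests on recovered reads were not run.

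Samples with the same replicate number had deviations from their group means that correlated at 0.171 to 0.315 between groups of the same label and at 0.0128 to 0.111 between KO-labelled and WT-labelled groups, and with 2 numbers per group the numbers were not taken as pairs. With the replicate number as a block, 99 genes passed for KO-labelled against WT-labelled untreated cells and no receptor did. Under the block Rxra passed in KO-labelled control against untreated (adjusted p = 0.0353) and Vdr in KO-labelled Poly(I:C) against control (adjusted p = 0.0427), and no other receptor call changed.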
